A study of Mus musculus with 9 samples.

Results

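The question addressed here was how the miRNA content of airway extracellular vesicles (EVs) after exposure to 2 ppm ozone (O3) differed from that after 1 ppm O3. EVs are membrane vesicles that cells release, and they were recovered from bronchoalveolar lavage fluid (BALF), the fluid used to wash out the airways. The mice were C57BL/6J females, 8 to 10 weeks of age, which breathed 1 or 2 ppm O3 in a whole-body chamber for 3 h and were lavaged on the following day. BALF from 3 mice was combined before RNA isolation, so that each group held 3 pools of 3 mice. These 6 pools were taken from a series of 9, whose other 3 pools came from mice exposed to filtered air (FA), held 4 mice each and are given only as a reference. Because mice were pooled, the spread between pools understates that between animals, and p-values refer to pools. The study lists a single exposure at 1 ppm O3 and a single one at 2 ppm O3. If all pools of a group came from the one listed, the concentration and the exposure session cannot be told apart, and the p-values do not cover a spread between sessions. Levels were given in RPMMM, a unit in which the reads mapped to miRNAs are scaled to one total in every pool. A mature miRNA was tested when its mean exceeded 50 RPMMM over the 6 pools, which held for 204 of the 400 in the table, after genomic copies of the same mature sequence had been averaged and variants with a shifted 5′ end (isomiRs) set aside.

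A miRNA is cut from a hairpin precursor, and the strand that is loaded into an Argonaute protein pairs with mRNAs mainly through its seed, here bases 2 to 8. miRNAs that share a seed are grouped in families and can act on overlapping sets of mRNAs, while hairpins in one genomic cluster are often transcribed together but may belong to different families. In BALF, EVs come from airway epithelium, macrophages and other leukocytes, and the let-7, miR-200 and miR-30 families are abundant in lung epithelium. Since an EV sample mixes vesicles of many cells, a change in the number of vesicles from one cell type and a change in their load could not be told apart.

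The mature sequences on which the comparison turned are shown 5′ to 3′ with the seed in capitals. RefSeq on GRCm38.p6 gave a sequence for 175 of the 204 miRNAs, and 24 seeds were shared by at least 2 of these, 68 miRNAs in all. The first set gives miRNAs that were higher after 2 ppm O3 and shared no seed with another of the set.
miR-2137: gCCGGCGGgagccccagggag
miR-5126: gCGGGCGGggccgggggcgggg
miR-24-3p: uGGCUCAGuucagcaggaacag
miR-423-3p: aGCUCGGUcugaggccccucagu
miR-22-3p: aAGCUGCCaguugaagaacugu
miR-34b-3p: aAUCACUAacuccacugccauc

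The second set gives families in which one member was higher and another was not, so that the bases outside the seed can be compared.
miR-107-3p: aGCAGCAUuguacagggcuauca
miR-103-3p: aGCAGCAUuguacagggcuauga
miR-92b-3p: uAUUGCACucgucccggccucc
miR-92a-3p: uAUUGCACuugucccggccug
miR-29b-3p: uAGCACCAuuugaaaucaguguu
miR-29c-3p: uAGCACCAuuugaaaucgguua
miR-29a-3p: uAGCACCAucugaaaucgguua

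The third set gives members of families that were lower as deposited.
let-7c-5p: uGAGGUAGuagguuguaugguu
let-7i-5p: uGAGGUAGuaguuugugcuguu
miR-351-5p: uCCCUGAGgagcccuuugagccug
miR-125a-5p: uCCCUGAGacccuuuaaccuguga
miR-26a-5p: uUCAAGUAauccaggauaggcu

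The 2 ppm O3 pools rested on fewer miRNA reads. From the size of 1 read among low values, the 1 ppm O3 pools held 554925 to 861350 miRNA reads and the 2 ppm O3 pools 281275 to 300775, a ratio of means of 0.432 (p = 0.1 by a two-sided exact permutation test, which cannot give less with 3 pools a side). No value above 0 corresponded to fewer than about 10 reads, so a miRNA at 0 in a 2 ppm O3 pool could still lie anywhere up to 37.3 RPMMM. Of the 204 miRNAs, 23 were at 0 in at least 1 of the 2 ppm O3 pools and 9 in at least 1 of the 1 ppm O3 pools.

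Because every pool sums to the same total, a miRNA that takes a larger share lowers the values of all others. miR-2137 with its isomiRs took 4.09% of the miRNA reads after 1 ppm O3 and 19.5% after 2 ppm O3 (means of 3 pools). A further 3.99% and 25.7% were assigned to 8 hairpins that the RefSeq gene table does not list, such as miR-5115 and miR-5109. The share of all other hairpins was 91.9% after 1 ppm O3 and 54.8% after 2 ppm O3, and that of the let-7 family was 21.5% and 8.91%. None of these shares overlapped between the groups (p = 0.1 for each by the same exact permutation test). For this reason the calls are given on the deposited scale and after median-of-ratios scaling. This scaling divides each pool by the median ratio of its miRNAs to their geometric mean and so sets the typical miRNA to no change. Levels, sums and fold changes for which no scaling is named are as deposited.

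**Figure D1:**
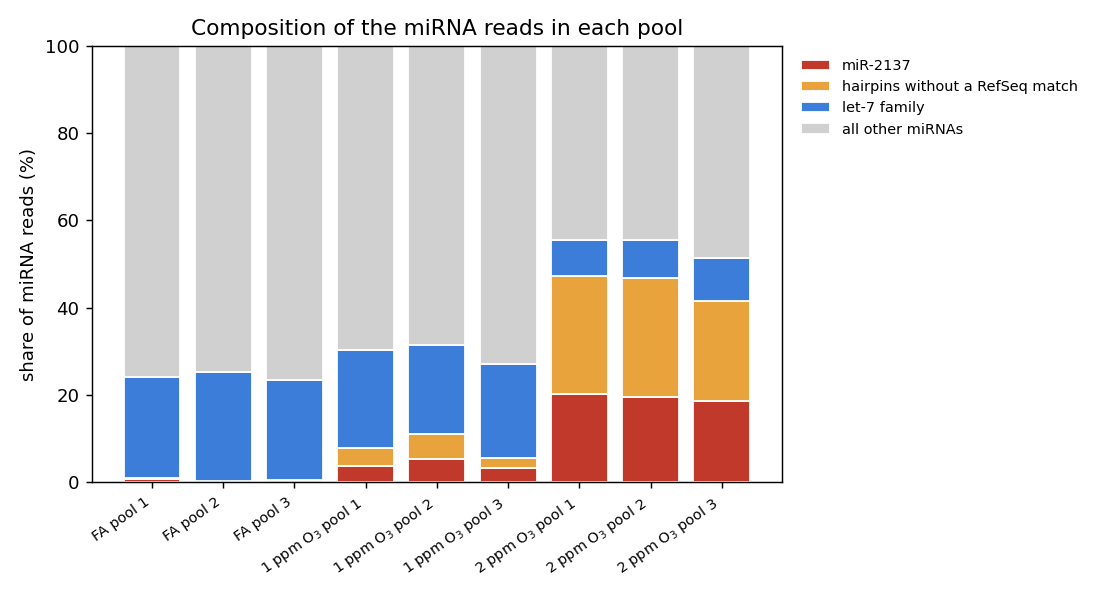
Share of miRNA reads (%) taken by miR-2137, by the 8 hairpins without a RefSeq match, by the let-7 family and by all other miRNAs in each of the 9 pools, isomiRs included. miR-2137 takes 3.23% to 5.40% in the 1 ppm O3 pools and 18.7% to 20.3% in the 2 ppm O3 pools, and the let-7 share is smaller in each 2 ppm O3 pool than in any other.

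A miRNA was called when its limma p, adjusted over all miRNAs tested, was under 0.05 and its level differed at least 2-fold. As deposited, 14 miRNAs (6.86%) were called higher and 41 (20.1%) lower after 2 ppm than after 1 ppm O3. With the median of ratios 24 (11.8%) were called higher and 2 (0.98%) lower. By the adjusted p alone, 18 (8.82%) were higher and 69 (33.8%) lower as deposited. The median log2 fold change of the 204 miRNAs was -0.59 as deposited and 0.00 after scaling. The scaling factors shifted the log2 fold changes up by 0.60, and by less where a pool was at or near 0, because of the 1 RPMMM added before the logarithm. All 14 miRNAs that were higher as deposited were also higher after scaling, whereas of the 41 that were lower only miR-351-5p and miR-322-3p remained so. The direction of the fold change turned for 48 miRNAs. None of these could be called under either scaling, because a shift of about 0.60 or less across 0 leaves both values under the 2-fold threshold. The groups of pools did not overlap for 88 miRNAs (43.1%) with 2 ppm O3 below and 27 (13.2%) with 2 ppm O3 above as deposited, and for 50 (24.5%) in each direction after scaling.

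The calls were compared over 6 ways of scaling. Each of the other 5 raised the median log2 fold change above that of the deposited values, so that miRNAs could mainly gain a higher call and lose a lower one, and the 2 directions are not compared for stability. The deposited values, the median of ratios, the total without miR-2137, the total without miR-2137 and the unmatched hairpins, the level of miR-23a-3p and the upper quartile all called the same 14 miRNAs higher, with 0 to 15 others. These 14 were miR-24-3p, miR-29b-3p, miR-34b-3p, miR-92b-3p, miR-107-3p, miR-378-3p, miR-423-3p, miR-874-3p, miR-2137, miR-5126 and 4 of the unmatched hairpins (miR-5115, miR-5109, miR-5105 and miR-5102). The only miRNA called lower under all 6 was miR-351-5p. The study picked miR-23a-3p as a reference because it varied little between samples in the small RNA sequencing. Scaling to it was therefore not independent of the deposited values. Over all other alternatives on the deposited values, except the test of miRNAs above 500 RPMMM alone, 10 of the 14 were called higher each time. The other 4 were miR-34b-3p, miR-92b-3p, miR-874-3p and miR-5102. miR-34b-3p had a log2 fold change of 0.85 without the first and 0.97 without the third 1 ppm O3 pool, and miR-92b-3p had 0.96 without the first 1 ppm O3 pool and 0.95 without the first 2 ppm O3 pool, which are below the 2-fold threshold. miR-874-3p was not called when the 9 pools were in one model (adjusted p = 0.167 from limma). miR-5102 was not called in that model (0.345), with no filter on the mean (0.0560) or without any one of the 2 ppm O3 pools (0.0644 to 0.0803).

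**Figure D2:**
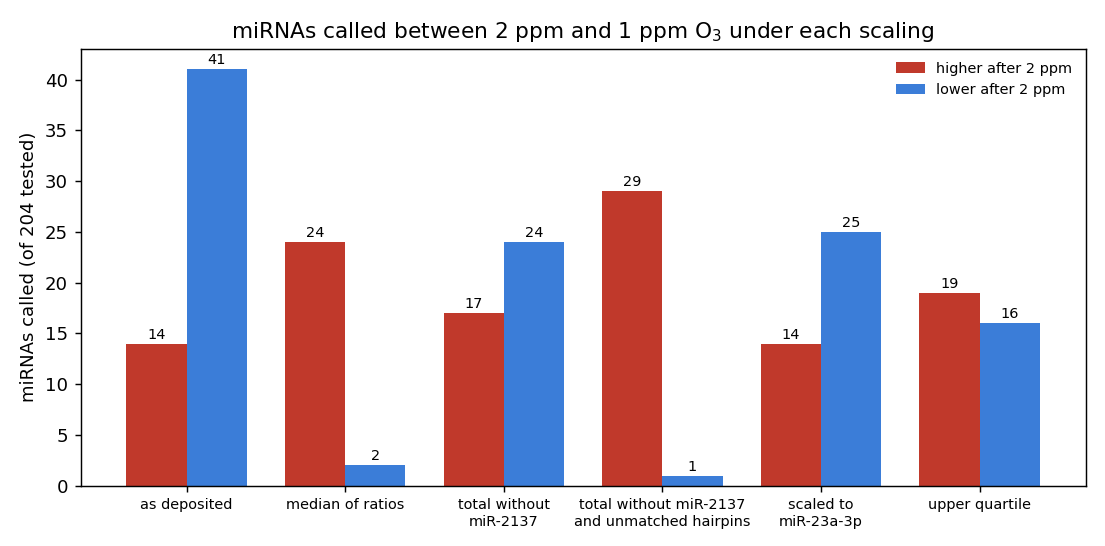
Number of miRNAs (of 204 tested) called higher or lower after 2 ppm than after 1 ppm O3 under 6 scalings of the pools, with the same 2 thresholds. The number called higher runs from 14 to 29 and the number called lower from 1 to 41.

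miR-2137 had the highest level of all miRNAs after 2 ppm O3. It was at 26797, 37829.6 and 22582 RPMMM in the 1 ppm O3 pools and at 128260.1, 129429.6 and 122935 RPMMM in the 2 ppm O3 pools. Every 2 ppm O3 pool was above every 1 ppm O3 pool, and the FA pools, at 4714, 641 and 579.8 RPMMM, were below both. The fold change was 4.47 as deposited (log2 2.16 ± 0.17 SE, adjusted p = 0.000117 from limma) and 6.76 after scaling. In its sequence 85.7% of bases are G or C, against a median of 47.6% over the 175 miRNAs with a sequence. Its hairpin lies in an intron of Zfp185 on the plus strand of chrX:70237418-70237483 (mm9).

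miR-5126 was much less abundant and had the largest fold change of the miRNAs called higher as deposited. Its level was 29.4, 79.6 and 30.1 RPMMM after 1 ppm O3 and 484, 451 and 400.1 RPMMM after 2 ppm O3, a fold change of 10.5 as deposited (log2 3.39 ± 0.46 SE, adjusted p = 0.000969 from limma). All of its 22 bases are G or C. miR-5115, one of the unmatched hairpins, was at 5586, 6726 and 2065 RPMMM after 1 ppm O3 and at 37525, 40257 and 28379 RPMMM after 2 ppm O3, and its fold change of 8.20 was the next in size. The other 3 unmatched hairpins called higher had fold changes of 4.79 (miR-5109), 4.08 (miR-5102) and 3.15 (miR-5105). Whether reads assigned to these hairpins come from miRNAs was not tested. Among the 8 miRNAs with a sequence that were called higher as deposited, the median G and C content was 59.1%, against 43.5% among the 39 with a sequence that were called lower. Across all 175 miRNAs, the log2 fold change and the G and C content had a Pearson correlation of 0.25 and a Spearman correlation of 0.14, given as a description only. The values were 0.16 and 0.12 without miR-2137 and miR-5126, and 0.50 and 0.32 over the 74 miRNAs with a mean above 500 RPMMM.

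miR-378-3p, encoded within the metabolic coactivator gene Ppargc1b, had an order of levels unlike that of miR-2137. Its level was 3603, 5526 and 3973 RPMMM after 1 ppm O3 and 11955, 13254 and 13913 RPMMM after 2 ppm O3, while the FA pools held 23319.5, 30205 and 35337 RPMMM. The 2 ppm O3 pools were thus above the 1 ppm O3 pools and below the FA pools, with no overlap. The fold change between the O3 groups was 3.03 as deposited (log2 1.60 ± 0.17 SE, adjusted p = 0.000252 from limma) and 4.58 after scaling. miR-34b-3p, which is characteristic of multiciliated airway cells, was also lowest after 1 ppm O3. It was at 2022, 4116 and 2387 RPMMM after 1 ppm O3, at 6103, 5323 and 5528 RPMMM after 2 ppm O3 and at 4583, 4566 and 5726 RPMMM in FA. Its fold change between the O3 groups was 2.08 as deposited (log2 1.06 ± 0.25 SE, adjusted p = 0.0118 from limma), and the ranges of FA and 2 ppm O3 overlapped.

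The share called higher over all miRNAs was 6.86% as deposited and 11.8% after scaling. Of the 5 miRNAs of the miR-34/miR-449 family that were tested, miR-34b-3p was the only one called as deposited. miR-34c-5p joined it after scaling, with 1796, 2302 and 1316 RPMMM after 1 ppm O3 and 3579, 2700.1 and 2117 RPMMM after 2 ppm O3 (scaled log2 fold change 1.23 ± 0.30 SE, adjusted p = 0.0192 from limma). That call was lost without the first or the third 1 ppm O3 pool or the first 2 ppm O3 pool (log2 fold change 1.00 to 1.24). miR-34c-3p, which has the seed of miR-34b-3p, had log2 fold changes of 0.40 as deposited and 1.00 after scaling. miR-34a-5p, a target of p53, and miR-449a-5p were not called, with log2 fold changes of -0.87 (95% interval -1.67 to -0.06) and -0.29 (-1.30 to 0.72).

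In the miR-23/miR-27/miR-24 clusters, where 9 miRNAs were tested, the share called can be set against 6.86% higher over all miRNAs as deposited and 11.8% after scaling. Of the 9, miR-24-3p alone was called, under both scalings. This miRNA targets regulators of the cell cycle and of apoptosis, and its hairpin at chr8:86732714-86732820 (mm9) lies next to those of miR-23a and miR-27a, with which it is transcribed. It was at 3102, 3253 and 3264 RPMMM after 1 ppm O3, close to 2900.1, 2689 and 2941 RPMMM in FA, and at 7368, 8702 and 6401 RPMMM after 2 ppm O3. The fold change was 2.32 as deposited (log2 1.21 ± 0.13 SE, adjusted p = 0.000261 from limma) and 3.51 after scaling. miR-23a-3p, the neighbour used by the study as a reference, held 23934, 23522 and 24117 RPMMM after 1 ppm O3 and 22095, 17911 and 23336 RPMMM after 2 ppm O3. Its log2 fold change was -0.19 (-0.44 to 0.06, adjusted p = 0.199 from limma) as deposited and 0.41 (adjusted p = 0.0192 from limma) after scaling. miR-27a-3p had a log2 fold change of -0.31 as deposited, and miR-27b-3p and miR-23b-3p of the second cluster -0.57 and -0.86. The passenger strand of the miR-24-2 hairpin, miR-24-2-5p, had a log2 fold change of -0.88, opposite in sign to that of miR-24-3p. The same mature miR-24-3p is also made from a copy next to miR-23b and miR-27b.

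miR-423-3p, from an intron of Ccdc55 at chr11:76891566-76891674 (mm9), was at 1182, 1838 and 1122 RPMMM after 1 ppm O3 and at 3368, 4125 and 4134 RPMMM after 2 ppm O3. The groups did not overlap, and the fold change was 2.87 as deposited (log2 1.52 ± 0.21 SE, adjusted p = 0.00100 from limma). The other strand of the hairpin, miR-423-5p, had a fold change of 1.67 as deposited, below the threshold of 2, and of 2.53 after scaling, where it was called higher. miR-874-3p, a miRNA of low abundance, was at 20.8, 64.8 and 54.6 RPMMM after 1 ppm O3 and at 299, 333 and 249 RPMMM after 2 ppm O3, with a fold change of 6.80 as deposited (adjusted p = 0.00357 from limma).

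**Figure D3:**
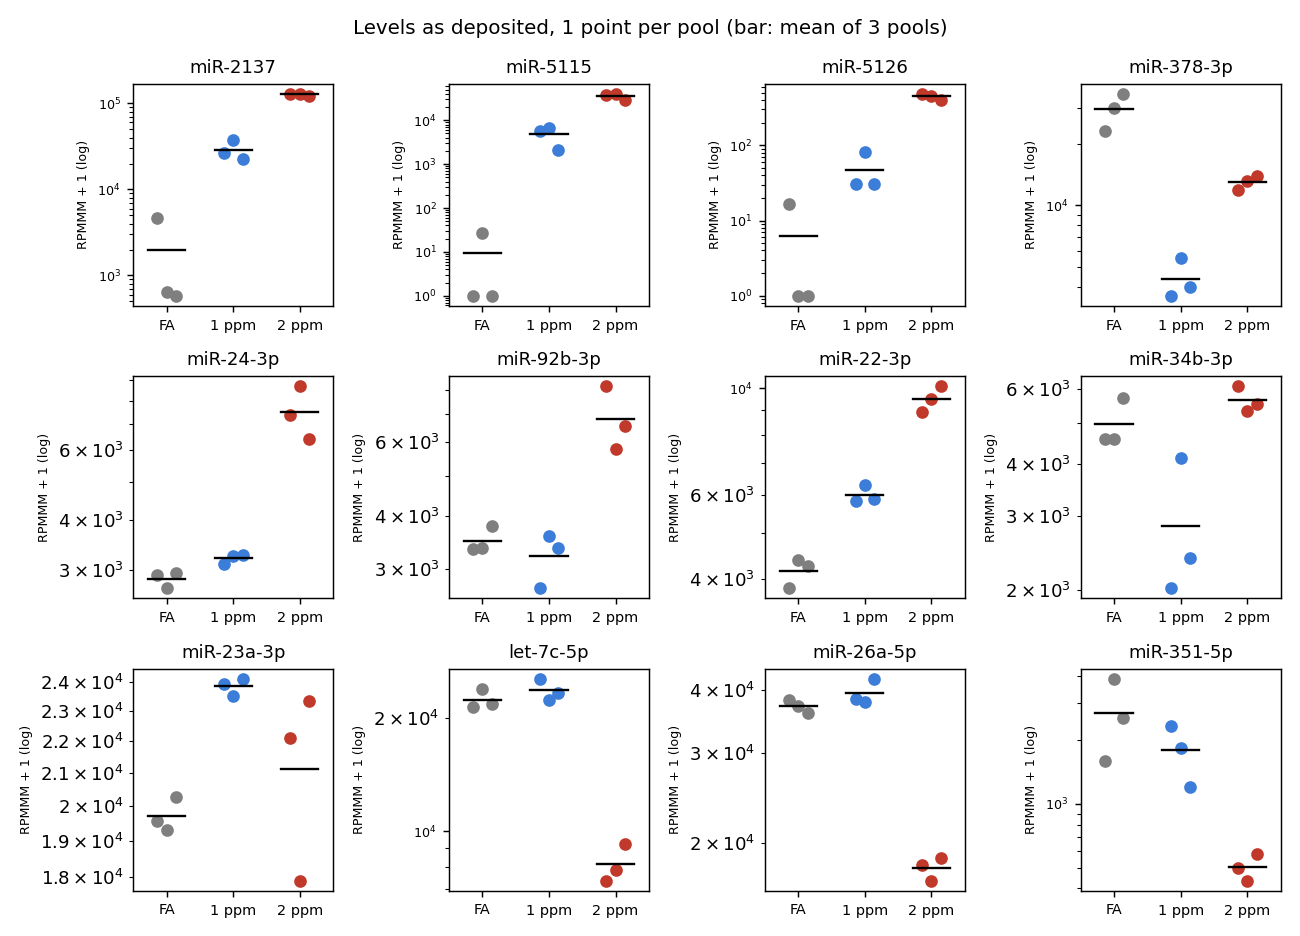
Level of 12 miRNAs (RPMMM + 1 as deposited, log axis of its own in each panel) in each pool of the FA, 1 ppm O3 and 2 ppm O3 groups, with a bar at the mean of 3 pools. miR-2137, miR-5115, miR-5126, miR-24-3p, miR-92b-3p and miR-22-3p are highest after 2 ppm O3, miR-378-3p and miR-34b-3p are lowest after 1 ppm O3, and let-7c-5p, miR-26a-5p and miR-351-5p are lowest after 2 ppm O3.

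3 families split although their members share a seed. miR-107-3p and miR-103-3p, which target regulators of insulin signalling and Dicer, differ by a single base (G22C, counted from the 5′ end with the base of miR-103-3p first). miR-107-3p was at 73.8, 91.9 and 35.6 RPMMM after 1 ppm O3 and at 276, 266 and 239 RPMMM after 2 ppm O3, a fold change of 4.12 (adjusted p = 0.00729 from limma). miR-103-3p was at 2176, 1803 and 2414 RPMMM and 1090, 1194 and 1164 RPMMM, and its log2 fold change was -0.88 as deposited (limma adjusted p = 0.00228). After scaling the log2 fold change of miR-103-3p was -0.28 and did not pass the adjusted p. The ratio of miR-107-3p to miR-103-3p within a pool, one of several ratios chosen after the values were seen and one that no scaling alters, was 0.0339, 0.0509 and 0.0148 after 1 ppm O3 and 0.253, 0.223 and 0.205 after 2 ppm O3. With so close a pair, reads that end before the differing base or carry an error there could be given to either, and this was not tested.

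miR-92b-3p has the seed of miR-92a-3p, miR-25-3p and miR-32-5p, a family known for its place in the oncogenic miR-17-92 cluster, and differs from miR-92a-3p at 2 of the aligned bases (U10C and G21C, the base of miR-92a-3p first). It was at 2691, 3581 and 3363 RPMMM after 1 ppm O3 and at 8162, 5775 and 6568 RPMMM after 2 ppm O3, with FA pools at 3336, 3352 and 3783 RPMMM. The fold change was 2.12 as deposited (log2 1.08 ± 0.17 SE, adjusted p = 0.00158 from limma) and 3.21 after scaling. For miR-92a-3p and miR-25-3p the log2 fold changes were -0.35 (-0.84 to 0.14) and -0.17 (-0.43 to 0.08) as deposited, neither of which passed. The ratio of miR-92b-3p to miR-92a-3p was 1.10, 1.78 and 1.28 in the 1 ppm O3 pools and 4.47, 4.01 and 2.76 in the 2 ppm O3 pools.

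In the miR-29 family, which represses collagens and other matrix genes, the abundant and the rare members differed. miR-29a-3p was at 12719, 14998 and 14080.1 RPMMM after 1 ppm O3 and at 14079, 12478 and 13867 RPMMM after 2 ppm O3, a log2 fold change of -0.05 (-0.27 to 0.17). miR-29b-3p was at 106, 70.3 and 67.4 RPMMM and 270.5, 201 and 251 RPMMM, a fold change of 2.98 (adjusted p = 0.00807 from limma). miR-29c-3p, which differs from miR-29a-3p by C10U, was at 398, 146 and 336 RPMMM and 519, 502 and 569 RPMMM, and was called only after scaling (log2 fold change 0.97 as deposited and 1.57 scaled). After scaling all 3 passed the adjusted p of 0.05 as higher, miR-29a-3p with a fold change of 1.46, below 2. Within pools, the ratio of miR-29b-3p to miR-29a-3p was 0.00835, 0.00468 and 0.00478 after 1 ppm O3 and 0.0192, 0.0161 and 0.0181 after 2 ppm O3.

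**Figure D4:**
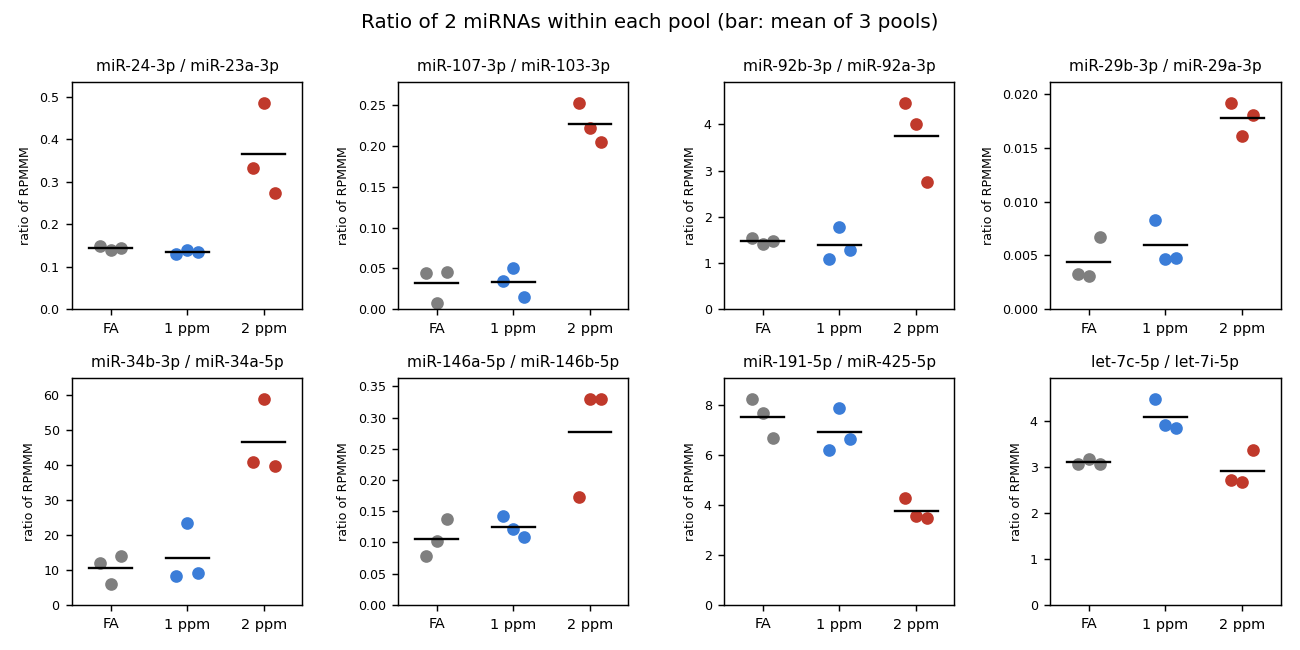
Ratio of the RPMMM of 2 miRNAs within each pool, which does not depend on the scaling, for the FA, 1 ppm O3 and 2 ppm O3 groups, with a bar at the mean of 3 pools. In all 8 panels the 2 ppm O3 pools lie outside the range of the 1 ppm O3 pools, above it in 6 and below it in those of miR-191-5p to miR-425-5p and of let-7c-5p to let-7i-5p. For let-7c-5p to let-7i-5p the FA pools, at 3.06 to 3.18, lie below the 1 ppm O3 pools and within the range of the 2 ppm O3 pools. These ratios were chosen after their values were seen.

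10 miRNAs were higher only after scaling, namely miR-16-1-3p, miR-22-3p, miR-29c-3p, miR-34c-5p, miR-126-5p, miR-320-3p, miR-328-3p, miR-375-3p, miR-423-5p and miR-760-3p. miR-22-3p, an abundant miRNA linked to macrophage polarisation, held 5818, 6277 and 5886 RPMMM after 1 ppm O3 and 8936, 9491 and 10102 RPMMM after 2 ppm O3, with FA pools at 3825, 4390.3 and 4257 RPMMM. Its 3 groups were in the order of the concentration and did not overlap. It passed the adjusted p under both scalings, but its fold change was 1.59 as deposited (log2 0.66 ± 0.09 SE, adjusted p = 0.000796 from limma) and 2.40 after scaling. miR-375-3p, a miRNA of neuroendocrine and secretory epithelium, held 3159, 3396 and 2905 RPMMM and 4747, 4841 and 4582 RPMMM, with log2 fold changes of 0.59 as deposited and 1.18 after scaling. miR-320-3p held 7009, 7226 and 6127 RPMMM and 8656, 10175 and 12166 RPMMM, with fold changes of 1.51 and 2.29. Unlike miR-22-3p, it did not follow the order of the concentration. Both arms of miR-320 summed to 10945, 15290 and 14412 RPMMM in FA, above every 1 ppm O3 pool and overlapping the 2 ppm O3 pools. The 1 and 2 ppm O3 pools of miR-22-3p, miR-375-3p and miR-320-3p did not overlap as deposited. Of the other 7, miR-16-1-3p, miR-34c-5p, miR-126-5p, miR-328-3p and miR-760-3p were each not called when at least 1 of the pools was left out.

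let-7 was the family with the most members called lower as deposited. let-7 miRNAs mark differentiated cells and repress growth genes such as Ras and Hmga2. Of 15 let-7 miRNAs tested, 10 fell as deposited, against 20.1% of all miRNAs, namely all 9 with the seed GAGGUAG and let-7d-3p (let-7g-5p missed the fold of 2 without the third 1 ppm O3 pool), and the median log2 fold change of the 15 was -1.12, against -0.59 over all 204. let-7c-5p fell from 25458, 22315 and 23290 RPMMM after 1 ppm O3 to 7368, 7864 and 9229 RPMMM after 2 ppm O3 (log2 fold change -1.54 ± 0.11 SE, adjusted p = 0.000110 from limma). let-7i-5p, the member of the seed group with the smallest change, fell from 5683, 5704 and 6055 RPMMM to 2713, 2939 and 2751 RPMMM (log2 fold change -1.05 ± 0.09 SE). For let-7c-5p the FA pools lay near the 1 ppm O3 pools, at 21383, 23912 and 21778 RPMMM. The summed level of the 18 let-7 miRNAs was already lower after 1 ppm O3 than in FA, without overlap. It was 152877 to 166801 RPMMM in FA, 133265 to 146589 RPMMM after 1 ppm O3 and 54154 to 64832 RPMMM after 2 ppm O3. After scaling no let-7 miRNA reached a fold change of 2, but the same 10 still passed the adjusted p of 0.05 as lower, with let-7c-5p at -0.95 ± 0.08 SE (adjusted p = 0.000225 from limma) and let-7i-5p at -0.46 ± 0.10 SE. By that rule 28 of all 204 miRNAs (13.7%) were lower and 31 (15.2%) higher. let-7 miRNAs are near-identical, let-7a-5p and let-7c-5p differing by A19G, so that reads may be shared between them.

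The miR-10/miR-99/miR-100/miR-125 superfamily, whose hairpins accompany let-7 or Hox genes in several clusters, had 5 of 11 members called lower as deposited, where 20.1% of all miRNAs were, and a median log2 fold change of -1.26, against -0.59 over all. miR-125a-5p, its most abundant member, fell from 12704, 12779.5 and 11309 RPMMM to 5035, 4101 and 5268 RPMMM (log2 fold change -1.36 ± 0.12 SE, adjusted p = 0.000117 from limma). The others were miR-100-5p (-1.68), miR-125b-5p (-1.31), miR-99a-5p (-1.26) and miR-10a-5p (-1.05), the last of which was at -0.86 without the first 1 ppm O3 pool and -0.92 without the third 2 ppm O3 pool and then not called. After scaling none was called, and miR-125a-5p and miR-99a-5p still passed the adjusted p, at log2 fold changes of -0.76 and -0.67.

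The 5 miRNAs tested from the X-linked miR-322/miR-351/miR-450/miR-503/miR-542 cluster, of which miR-322 and miR-503 restrain the cell cycle, had fitted changes below the median of all miRNAs, and 4 were called lower as deposited, where 20.1% of all miRNAs were. Of the 4, miR-450a-5p and miR-542-3p rest on values of 0 and were not called when any one 1 ppm O3 pool was left out, and miR-542-3p was called under the deposited scaling only. miR-351-5p, from chrX:50406432-50406530 (mm9), fell from 2342, 1828 and 1196 RPMMM after 1 ppm O3 to 499, 433 and 578 RPMMM after 2 ppm O3. Its fold change was 3.44 down as deposited (log2 -1.78 ± 0.26 SE, adjusted p = 0.00136 from limma) and 2.28 down after scaling (log2 -1.19 ± 0.27 SE, adjusted p = 0.0146 from limma). It shares the seed CCCUGAG with miR-125a-5p and miR-125b-5p, and all 3 were lower as deposited. miR-322-3p, from the neighbouring hairpin at chrX:50407432-50407526, fell from 820.4, 726 and 508 RPMMM to 226, 211 and 181 RPMMM (log2 -1.71 as deposited and -1.11 scaled, adjusted p = 0.0192 from limma). The scaled calls of both rested on single pools. Without the first 1 ppm O3 pool miR-351-5p had a scaled log2 fold change of -0.97 and miR-322-3p of -0.97, and neither was called. The scaled call of miR-322-3p was also lost without the second 1 ppm O3 pool (-1.03, adjusted p = 0.0617 from limma) and without the third 2 ppm O3 pool (-0.98). The FA pools for miR-322-3p, at 309, 268 and 368 RPMMM, lay between the O3 groups. miR-450a-5p was listed at 0 in all 3 of the 2 ppm O3 pools and at 122, 132 and 109 RPMMM in the 1 ppm O3 pools, and miR-542-3p was at 0 in 2 of the 2 ppm O3 pools, so no fold change is given for either. miR-351-3p did not pass, at -1.64 on the log2 scale (limma adjusted p = 0.0552).

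The abundant strands of the miR-26, miR-30 and miR-200 families had log2 fold changes near -1 as deposited. miR-26a-5p, a repressor of Ezh2, fell from 38420.2, 37911 and 42060.2 RPMMM to 18063, 16855 and 18658 RPMMM (log2 fold change -1.14 ± 0.07 SE, adjusted p = 0.000110 from limma), and miR-26b-5p by 1.07 on the log2 scale. Over all miRNAs 20.1% were called lower as deposited. Of 9 miR-30 miRNAs, 4 were called lower, of which miR-30c-5p changed most (-1.29), and miR-30d-5p, the most abundant, missed the fold threshold at -0.99 (adjusted p = 8.25e-05 from limma). Of 7 miRNAs of the epithelial miR-200 family, which keeps Zeb1 and Zeb2 low, only miR-200b-3p was called, falling from 22153, 22605 and 23085 RPMMM to 10637, 10771 and 12503 RPMMM (2.01-fold). Its log2 fold change was -0.99 without the third 1 ppm O3 pool, and -0.96 and -0.97 without the first and the second 2 ppm O3 pool, below the threshold. The share called in this family was not above that of all miRNAs. Another 4 passed the adjusted p below a fold of 2. After scaling none of the 3 families had a called member, and their medians were -0.48, -0.39 and -0.31.

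Other miRNAs that fell as deposited came from smaller groups. In the X-linked miR-532/miR-500/miR-501/miR-362/miR-660 cluster 3 of 4 fell, against 20.1% called lower of all miRNAs, and none was called after scaling. They were miR-532-5p, miR-501-3p and miR-362-5p, with miR-362-5p going from 289.5, 200.0 and 383 RPMMM to 98.0, 44.9 and 131 RPMMM (log2 fold change -1.74, adjusted p = 0.0231 from limma). miR-362-5p was not called without the first or the third 1 ppm O3 pool, and miR-501-3p was called with 1 pool left out only when that was the third 2 ppm O3 pool. miR-1298-5p fell from 3024, 2799 and 3704 RPMMM to 1097, 802 and 1545 RPMMM, below its FA level of 4684, 5131 and 4377 RPMMM. miR-191-5p fell by 1.34 on the log2 scale while miR-425-5p from the same primary transcript did not pass (-0.46, -0.93 to 0.01), and the ratio of miR-191-5p to miR-425-5p was 6.19, 7.89 and 6.66 after 1 ppm O3 and 4.30, 3.55 and 3.46 after 2 ppm O3. miR-203-3p, a miRNA of barrier epithelium, fell by 1.19 on the log2 scale, whereas miR-205-5p, also of barrier epithelium, had a log2 fold change of 0.11 (-0.35 to 0.57).

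**Figure D5:**
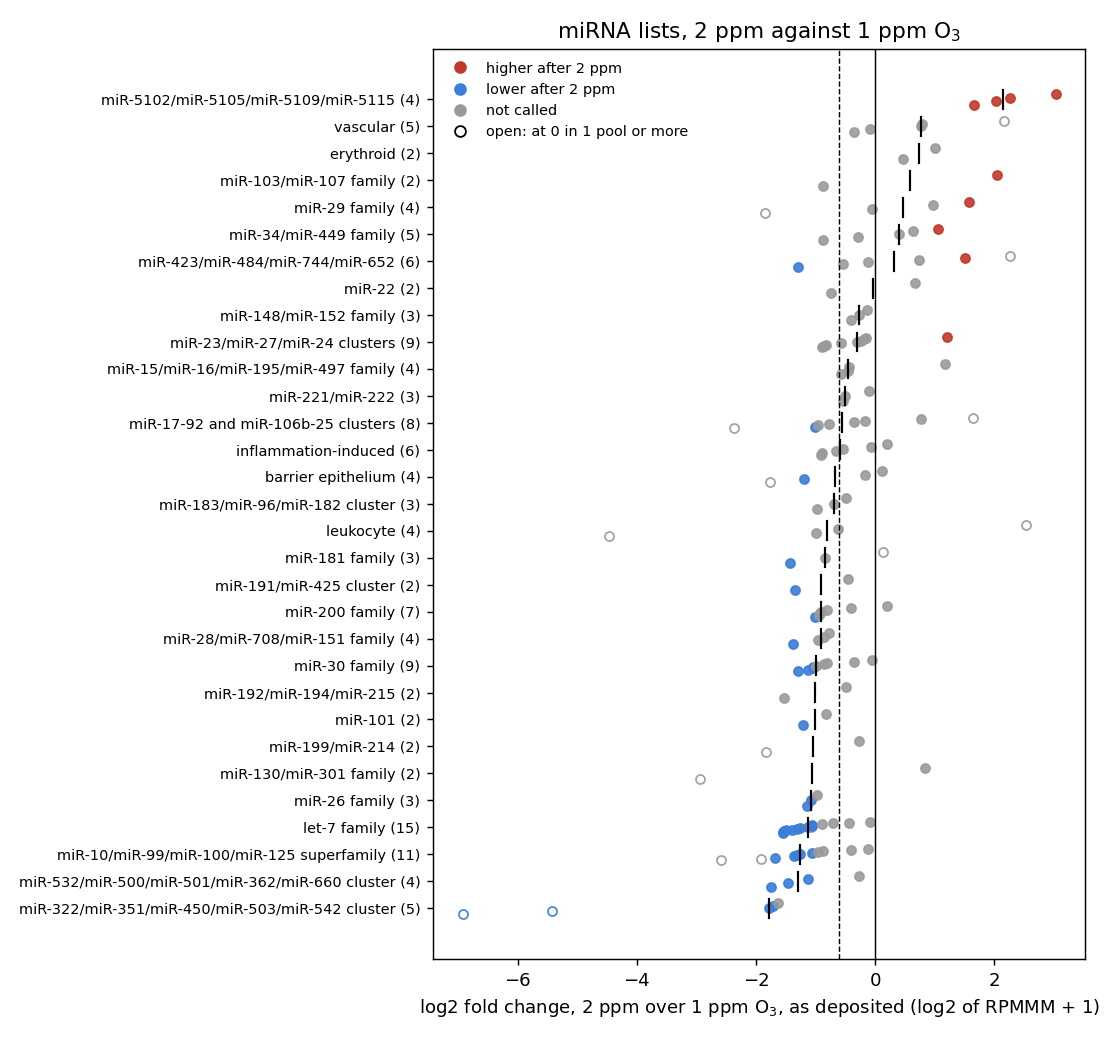
Log2 fold change of each miRNA tested, 2 ppm over 1 ppm O3 as deposited, by miRNA list with the number tested in brackets and a black bar at the median. The solid line marks no change as deposited and the dashed line, at -0.60, no change after median-of-ratios scaling for miRNAs well above 0; the median of the let-7 list lies to the left of both, and open points mark miRNAs at 0 in at least 1 of the 6 pools, whose position depends on the pseudocount.

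Among the miRNAs listed for inflammation, leukocytes, vessels, red blood cells and muscle, 18 of which were tested, none was called as deposited. Over all miRNAs 6.86% were called higher and 20.1% lower. By the adjusted p alone, 2 miRNAs of the inflammation list and 2 of the leukocyte list were lower, where 33.8% of all miRNAs were. miR-21-5p, the most abundant miRNA over the 6 pools and one induced in many inflamed tissues, held 113937, 103607 and 125317 RPMMM after 1 ppm O3 and 56468, 66781 and 61125 RPMMM after 2 ppm O3, and its log2 fold change of -0.89 (limma adjusted p = 0.000252) missed the fold of 2. The NF-kB-induced miR-146a-5p and miR-146b-5p had log2 fold changes of 0.21 and -0.90, and the ratio of the first to the second was 0.143, 0.121 and 0.108 after 1 ppm O3 and 0.173, 0.330 and 0.329 after 2 ppm O3. miR-155-5p was at 371, 263 and 288 RPMMM and 163, 232 and 190.0 RPMMM (log2 fold change -0.65, -1.29 to -0.02). The myeloid miR-223-3p was at 977, 838 and 1344 RPMMM and 685, 639 and 689 RPMMM (log2 fold change -0.62 as deposited and -0.03 scaled).

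miR-126-3p of endothelium was at 161, 268 and 629.5 RPMMM after 1 ppm O3 and at 532, 577 and 465 RPMMM after 2 ppm O3. The groups overlapped, and it was called under neither scaling (log2 fold change 0.79, adjusted p = 0.210 as deposited, and 1.39, adjusted p = 0.0587 scaled, both from limma). Its sister strand miR-126-5p, at 102, 97.3 and 127 and 169, 183 and 202 RPMMM, was called higher after scaling only. The erythroid miR-451 was at 73.2, 121 and 94.1 RPMMM and 66.5, 218 and 479.5 RPMMM and miR-486-5p at 76.5, 190.1 and 144 RPMMM and 91.4, 129.6 and 469 RPMMM, so that the third 2 ppm O3 pool stood above the rest. miR-3107-5p had the same values as miR-486-5p in these pools, as would entries that share reads. Neither was called (adjusted p = 0.274 and 0.583 from limma).

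The airway source named in the labels was checked on the miRNA markers of several cell types. The summed level of the epithelial miR-200 list was 47659.9 to 52688 RPMMM in the 1 ppm O3 pools and 24848 to 28197 RPMMM in the 2 ppm O3 pools, and that of the ciliated-cell miR-34/miR-449 list was 5449 to 9223 and 10238 to 12154 RPMMM. The leukocyte list summed to 1502 to 2538 and 1109 to 1279 RPMMM, the vascular list to 5862 to 8386 and 5816 to 5903 RPMMM, the erythroid list to 149.8 to 311 and 158 to 948 RPMMM and the muscle list to 61.6 to 89.9 and 0 to 89.3 RPMMM. These sums are as deposited, where the median log2 fold change of all miRNAs tested was -0.59. After scaling, the median of the members tested was -0.31 for the miR-200 list and 1.00 for the miR-34/miR-449 list. The scaled medians were -0.21 for the leukocyte (4 tested), 1.36 for the vascular (5 tested) and 1.33 for the erythroid list (2 tested). Their members ran from -4.07 to 3.00, from 0.24 to 2.68 and from 1.06 to 1.61, and those at 0 in a pool depend on the pseudocount. Of these lists only miR-126-5p was called after scaling, and the erythroid sum of 948 RPMMM came from the third 2 ppm O3 pool alone. The only muscle miRNA tested was at 0 in some pools. The part of a changed cell source in the differences above was not tested.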

How the data were processed

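Small RNA of BALF EVs was sequenced in 9 pools, and the 6 O3 pools were compared here. The authors ran miRquant 2.0, which removed adapters, mapped reads to mm9 and counted miRNAs with their isomiRs. The values deposited were RPMMM, an RPM over miRNA reads only, and other filters are not given in the sources used here. Each column sums to the same total, so a dominant miRNA lowers all others. Of 1308 entries, 881 were isomiRs and were left out, and the other 427 were averaged over genomic copies to 400 mature miRNAs.

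From these values, log2(RPMMM + 1) was fitted for the 204 miRNAs with a mean above 50 RPMMM by limma 3.58.1 (R 4.3.3) with its variance trend, and Benjamini-Hochberg adjustment ran over all 204. A call needed adjusted p under 0.05 and a 2-fold difference, as in the study. Fold changes on this scale understate those of low miRNAs above 0 in every pool, and where a pool is at 0 they depend on the pseudocount and can overstate the change. Intervals are 95% from the fit. The same fit followed median-of-ratios scaling over the 176 miRNAs above 0 in all 6 pools. The low values lay on steps of 1 read, within 0.05 reads, for 74.4% to 82.1% of values in the 6 pools, which gave the reads per pool but was not enough for a count test. For single values an exact permutation test was used, two-sided. The fit was tested on simulated data.

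The members and lists were chosen with earlier results of these data known. Named were the 10 miRNAs called with the largest change in each direction under each scaling, those called under both, the 10 most abundant, those the study names for the sequencing data, and of each list the called and the most abundant members. miRNAs set beside a called one of the same seed, hairpin or cluster, and the ratios within pools, were picked with the values in view. The alternatives tried were the pseudocount, filters, scalings, isomiRs, genomic copies, the fit and leaving out each pool. Hairpin positions are from the mm9 annotation, and mature sequences are from RefSeq on GRCm38.p6, read without coordinates. Python 3.11.15 was used with pandas 2.3.3, numpy 2.4.6, matplotlib 3.10.9 and scipy 1.17.1. Other small RNAs were not analysed here.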

Additional observations from a re-analysis of the deposited data

Results flagged for a closer look

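isomiR entries, which the comparison above left out, held 32.7% of the miRNA reads after 2 ppm O3, against 10.6% after 1 ppm O3 and 7.05% in FA (means of 3 pools). They were flagged because they are data outside the mature miRNAs tested and lay above the level in FA. The 2 ppm O3 pools held 30.6% to 34.3% and the 1 ppm O3 pools 9.08% to 12.3%. isomiRs of hairpins other than miR-2137 and the hairpins without a RefSeq match made up 3.98% of the reads after 2 ppm O3 and 5.97% after 1 ppm O3. All entries of these same hairpins held 54.8% of the reads after 2 ppm O3 and 91.9% after 1 ppm O3, so the lower isomiR share is not a fall relative to their hairpins. Whether these entries are variants of miRNAs or other small RNAs was not tested.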

How the results depend on the processing

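The counts of miRNAs moved mainly with the scaling. The 14 miRNAs higher as deposited became 24 with the median of ratios, 29 when miR-2137 and the unmatched hairpins were kept out of the total, and 9 when only miRNAs with a mean above 500 RPMMM were tested, where fewer were tested. The 41 lower became 2 with the median of ratios, 24 with the total without miR-2137, 1 with the total without miR-2137 and the unmatched hairpins, 25 when scaled to miR-23a-3p and 16 with the upper quartile. After median-of-ratios scaling, the 24 higher became 15 above 500 RPMMM, and the 2 lower became 4 with a pseudocount of 10, 7 with no filter on the mean, 1 above 500 RPMMM, 4 with genomic copies summed, 4 with the 9 pools in one model and 9 with the ratios taken over all entries. The cause of these changes other than the filter was not tested.

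Leaving out each pool in turn gave 13 to 15 higher and 32 to 45 lower as deposited, and 22 to 26 higher and 0 to 8 lower after scaling. The 0 was without the first 1 ppm O3 pool, and the 8 without the second 2 ppm O3 pool, with 4 without the third 1 ppm O3 pool and 5 without either the first or the third 2 ppm O3 pool. The median log2 fold change of -0.59 was -0.71 to -0.52 with a pool left out. It was -0.50 with values below 40 RPMMM set to 40, -1.05 with no filter, -0.83 above 500 RPMMM, -0.68 with isomiRs summed in, 0.00155 with the median of ratios, -0.34 and 0.15 with the total without miR-2137 and without the unmatched hairpins as well, -0.41 scaled to miR-23a-3p and -0.26 with the upper quartile. The value for miRNA reads per pool, 2 ppm O3 over 1 ppm O3, was 0.397 to 0.502 with a pool left out.

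Of 1214 values of 65 named miRNAs under these alternatives, 986 kept their direction and side of the threshold, 191 no longer passed, 33 passed where they had not, and 4 turned. The 4 were all of the miR-23a-3p log2 fold change, which was 0.41 with the median of ratios, 0.0674 with the total without miR-2137, 0.56 without the unmatched hairpins as well and 0.15 with the upper quartile. Other miRNAs described above are not among the 65, and some of them also turned over the 6 scalings. Their log2 fold changes ran from -0.05 to 0.70 (miR-29a-3p), -0.31 to 0.44 (miR-27a-3p) and -0.57 to 0.18 (miR-27b-3p). They ran from -0.35 to 0.40 for miR-92a-3p, -0.17 to 0.57 for miR-25-3p and -0.46 to 0.29 for miR-425-5p. For miR-155-5p the range was -0.65 to 0.09 and for miR-223-3p -0.62 to 0.13. No paired analysis was made, because the 1 and 2 ppm O3 pools held different mice, which the study had assigned to the exposure groups at random. The depth of 281275 to 300775 reads and the minimum of about 10 reads limit what can be seen of miRNAs below about 40 RPMMM after 2 ppm O3.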

Other observations

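Both arms were tested in 48 pairs, and the less abundant arm had the higher log2 fold change between 2 and 1 ppm O3 in 29 of them and the lower in 19. An arm averaged over genomic copies could be paired with an arm of a single copy, and miR-125b-5p entered with each of its 3p arms. The median difference between the arms was 0.26 on the log2 scale. The ratio of the minor to the major arm was higher in all 2 ppm O3 pools than in any 1 ppm O3 pool for 12 of the 48 pairs and lower for 3. Of single miRNAs after scaling, 24.5% did not overlap in each direction. Among the 12 were 3 let-7 hairpin groups, miR-125a, miR-200b, miR-423 and miR-16-1. miR-16-1-3p, the passenger strand of a hairpin whose main strand restrains the cell cycle, was at 102, 81.1 and 33.7 RPMMM after 1 ppm O3 and at 133, 142 and 178 RPMMM after 2 ppm O3. The ratio of miR-16-5p to miR-16-1-3p was 18.0, 24.2 and 55.7 after 1 ppm O3 and 10.0, 7.63 and 8.00 after 2 ppm O3. In FA this ratio was 5.92, 4.53 and 4.01, below both O3 groups and nearer to the 2 ppm O3 pools. In the miR-142 hairpin, listed for leukocytes, the 5p arm was at 71.9, 28.8 and 0 RPMMM after 1 ppm O3 and at 62.5, 62.2 and 103 RPMMM after 2 ppm O3, and the 3p arm at 131, 28.8 and 114 RPMMM and 0, 41.5 and 0 RPMMM. Several of these minor arms were near the minimum of about 10 reads, where values at 0 set the ratio.

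The mean G and C content of miRNA reads, weighted by level over the 340 miRNAs with a sequence, was 44.5% ± 0.748 (SD, n = 3 pools) after 1 ppm O3 and 54.7% ± 0.590 after 2 ppm O3. Without miR-2137 it was 42.6% ± 0.197 and 44.0% ± 0.231. Neither pair of groups overlapped (exact permutation test, two-sided, p = 0.1 for both, the smallest that these pools allow).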
